A study of Mus musculus with 12 samples.

Results

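The unfolded protein response and the integrated stress response were examined in mpkCCDc11 cells through 34 genes, chosen as rows of the deposited gene table by symbol. All 34 were found once among 45777 genes, and all 34 passed the filter on low counts that left 15932 genes for testing. They fall into 18 genes of endoplasmic reticulum (ER) folding and degradation, 4 genes for the ER stress sensors and Xbp1, and 12 genes of the ATF4 type, made up of 7 regulators of the ATF4-CHOP arm and 5 enzymes of serine, one-carbon and asparagine synthesis. mpkCCDc11 cells are a murine line derived from the cortical collecting duct, the nephron segment whose water permeability is set by vasopressin.

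RNA was sequenced in 12 libraries, 3 for each of 4 groups. The groups were TAZ siRNA with dDAVP, TAZ siRNA with vehicle, control siRNA with dDAVP, and control siRNA with vehicle. TAZ is the Hippo pathway coactivator encoded by Wwtr1, and dDAVP is a synthetic vasopressin analogue, given at 1e-09 M to the basolateral side. In the labels the TAZ siRNA libraries carry the genotype TAZ knockdown and the control siRNA libraries the genotype WT. All 4 groups came from the 1 cell line, transfected with DharmaFECT4, grown on permeable filters and then kept without serum and hormones. The culture medium used before that step held dexamethasone, insulin, triiodothyronine, epidermal growth factor and transferrin in all groups. The labels name several exposure times to dDAVP and not the one of these libraries. Nothing states that a group's libraries are separate cultures, so p-values measure only their spread, part of which may be technical.

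The ER holds chaperones and disulfide isomerases that fold secreted and membrane proteins. When unfolded protein builds up, 3 sensors in the ER membrane respond. ATF6 is cut to release a transcription factor. IRE1, the product of Ern1, removes a short stretch from Xbp1 mRNA so that an active factor is made. PERK, the product of Eif2ak3, phosphorylates eIF2-alpha. Phosphorylated eIF2-alpha lowers general translation and raises that of ATF4. Other kinases reach the same step on amino acid shortage or other stress, so ATF4 targets for amino acid supply can respond with or without the ER branches. In the collecting duct, vasopressin raises synthesis of aquaporin-2, a membrane protein that passes through the ER.

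Promoter sequences are shown because ER stress genes and ATF4 targets are known for different sequence elements. Promoter windows from RefSeq (GRCm38.p6), each from 250 bases before to 50 bases after the annotated start, were found for 31 of the 34 genes, all but Hyou1, Manf and Atf6. The ER stress element was searched as CCAAT and CCACG at the 2 ends of 19 letters, and the element of the C/EBP-ATF composite type as TGATGNAA. A core of the unfolded protein response element was searched as TGACGTGG and the cAMP response element as TGACGTCA, all on both strands. The core TGACGTGG shares its first letters with TGACGTCA and the reverse complement of its last letters with the end of the ER stress element, and a place was counted under each motif it matched. The capitals mark the match, and each sequence is written on the strand of its gene.
Hspa5, ER stress element, plus strand, chr2:34771840-34772089: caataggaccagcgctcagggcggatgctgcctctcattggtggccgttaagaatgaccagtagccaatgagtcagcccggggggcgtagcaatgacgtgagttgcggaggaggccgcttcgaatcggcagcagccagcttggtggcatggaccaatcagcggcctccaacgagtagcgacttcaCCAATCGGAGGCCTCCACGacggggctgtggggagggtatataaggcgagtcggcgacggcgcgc
Pdia6, ER stress element, plus strand, chr12:17266471-17266529: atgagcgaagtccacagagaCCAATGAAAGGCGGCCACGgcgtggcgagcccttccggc
Creld2, ER stress element, plus strand, chr15:88819500-88819558: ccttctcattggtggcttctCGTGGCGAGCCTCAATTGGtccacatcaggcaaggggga
Dnajc3, ER stress element, plus strand, chr14:118937807-118937865: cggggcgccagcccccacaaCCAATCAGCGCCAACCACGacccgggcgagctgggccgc
Syvn1, ER stress element, plus strand, chr19:6046512-6046570: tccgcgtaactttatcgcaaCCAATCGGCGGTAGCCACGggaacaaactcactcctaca
Asns, C/EBP-ATF element, minus strand, chr6:7693210-7693459: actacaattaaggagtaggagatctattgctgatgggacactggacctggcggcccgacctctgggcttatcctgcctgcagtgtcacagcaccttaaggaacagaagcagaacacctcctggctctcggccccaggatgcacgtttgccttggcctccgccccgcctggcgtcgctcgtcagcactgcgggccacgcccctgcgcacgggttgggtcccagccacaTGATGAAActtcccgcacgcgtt
Chac1, C/EBP-ATF element, plus strand, chr2:119351029-119351076: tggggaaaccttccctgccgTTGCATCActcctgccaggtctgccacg
Nupr1, C/EBP-ATF element, minus strand, chr7:126625553-126625600: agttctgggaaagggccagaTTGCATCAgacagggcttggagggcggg
Herpud1, C/EBP-ATF element, plus strand, chr8:94386297-94386344: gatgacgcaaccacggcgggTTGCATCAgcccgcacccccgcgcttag

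The ER stress element stood in 8 of the 16 ER folding and degradation genes with a window (Calr, Canx, Creld2, Dnajc3, Hsp90b1, Hspa5, Pdia6 and Syvn1) and in 0 of the 12 ATF4-type genes, against 0.119% of all 32851 windows. The C/EBP-ATF element stood in 4 of the 12 ATF4-type genes (Asns, Chac1, Nupr1 and Trib3) and in 1 of the 16 ER genes (Herpud1), against 3.97% of all windows. The cAMP response element, held by 1.79% of all windows, was found in Ppp1r15a alone among the 31, and the TGACGTGG core, held by 0.676%, in none of them. A match is a description of these letters in these windows, and where there is none nothing follows about the factor. In Trib3 the match lies after the annotated start, from base 15 to base 22. The spans of all 34 genes in the deposited file equal those of RefSeq on GRCm38, and examples are Hspa5 (chr2:34772090-34776529), Xbp1 (chr11:5520641-5525993), Atf4 (chr15:80255184-80257545) and Sesn2 (chr4:132492804-132510456).

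Estimated counts summed to between 45095300 and 61725300 per library. Wwtr1, the targeted gene, averaged 114 ± 10.7 CPM (counts scaled to library size) in TAZ siRNA and 166 ± 6.62 CPM in control siRNA cells given dDAVP (SD, n = 3, as in all groups). It averaged 116 ± 2.51 CPM in TAZ siRNA and 181 ± 4.42 CPM in control siRNA cells given vehicle, so that it fell by 31.4% with dDAVP and by 35.5% with vehicle. Aqp2, the classic vasopressin target, averaged 11.02 ± 2.39 CPM with dDAVP and 0.0484 ± 0.0838 CPM with vehicle in TAZ siRNA cells, and 34.7 ± 8.77 CPM with dDAVP and 0.340 ± 0.00341 CPM with vehicle in control siRNA cells. The sum of 11 collecting duct markers moved with dDAVP. It was 3567 to 3722 CPM with dDAVP and 3186 to 3414 CPM with vehicle in TAZ siRNA cells, and 3835 to 4006 CPM with dDAVP and 3159 to 3298 CPM with vehicle in control siRNA cells. The sum of 4 proximal tubule markers was 125 to 136 CPM with TAZ siRNA and dDAVP and 139 to 154 CPM with TAZ siRNA and vehicle. With control siRNA it was 153 to 169 CPM with dDAVP and 180.4 to 189.7 CPM with vehicle. The sum of 5 intercalated cell markers, of which Slc26a4 and Foxi1 were at 0 in all 12 libraries, also moved with dDAVP. It was 119 to 134 CPM with dDAVP and 89.5 to 104 CPM with vehicle in TAZ siRNA cells, and 132 to 141 CPM with dDAVP and 107 to 113 CPM with vehicle in control siRNA cells. The 6 fibroblast markers (Col1a2, Col3a1 and Dcn at 0 throughout) summed to 4.67 to 5.82 CPM with dDAVP and 6.02 to 7.16 CPM with vehicle in TAZ siRNA cells, and to 4.44 to 5.35 CPM with dDAVP and 5.26 to 6.49 CPM with vehicle in control siRNA cells. The 5 immune markers (Adgre1 at 0 throughout) summed to 4.63 to 5.20 CPM with dDAVP and 3.84 to 4.37 CPM with vehicle in TAZ siRNA cells, and to 4.46 to 5.01 CPM with dDAVP and 3.93 to 4.88 CPM with vehicle in control siRNA cells. The sums of 3 loop of Henle and distal tubule markers (Slc12a1 at 0 throughout) and of 4 endothelial markers (Kdr and Emcn at 0 throughout) were at most 0.516 and 0.275 CPM in any library. The part of these sums in the results below was not tested.

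Per length of transcript, in FPKM (a level scaled to transcript length and library size, deposited by the authors), Calr, a lectin chaperone that binds calcium, was highest in control siRNA vehicle cells at 419 ± 8.78 (SD, n = 3, as for the levels that follow). Next came the chaperone Hsp90b1 at 353 ± 7.16, the disulfide isomerase Pdia3 at 223 ± 2.73 and the ER Hsp70 chaperone Hspa5 (BiP) at 206 ± 3.56 FPKM. Phgdh, the first enzyme of serine synthesis, stood at 149 ± 6.64 and Atf4 at 141 ± 2.92 FPKM, and the ranges of mean ± SD of these neighbours, Phgdh and Atf4, overlapped. At the low end were Ddit3 at 6.98 ± 0.341, Sesn2 at 6.69 ± 0.402, Chac1 at 5.85 ± 0.588, Ern1 at 4.38 ± 0.182 and Trib3 at 4.16 ± 0.532 FPKM, and the ranges of mean ± SD of Ern1 and Trib3 overlapped. The 14 chaperones and foldases took most of the summed FPKM of the 34 genes. Their share was 69.1% ± 0.709 with dDAVP and 70.7% ± 0.885 with vehicle in TAZ siRNA cells, and 69.6% ± 0.0902 with dDAVP and 71.7% ± 0.516 with vehicle in control siRNA cells (SD, n = 3 each).

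**Figure D1:**
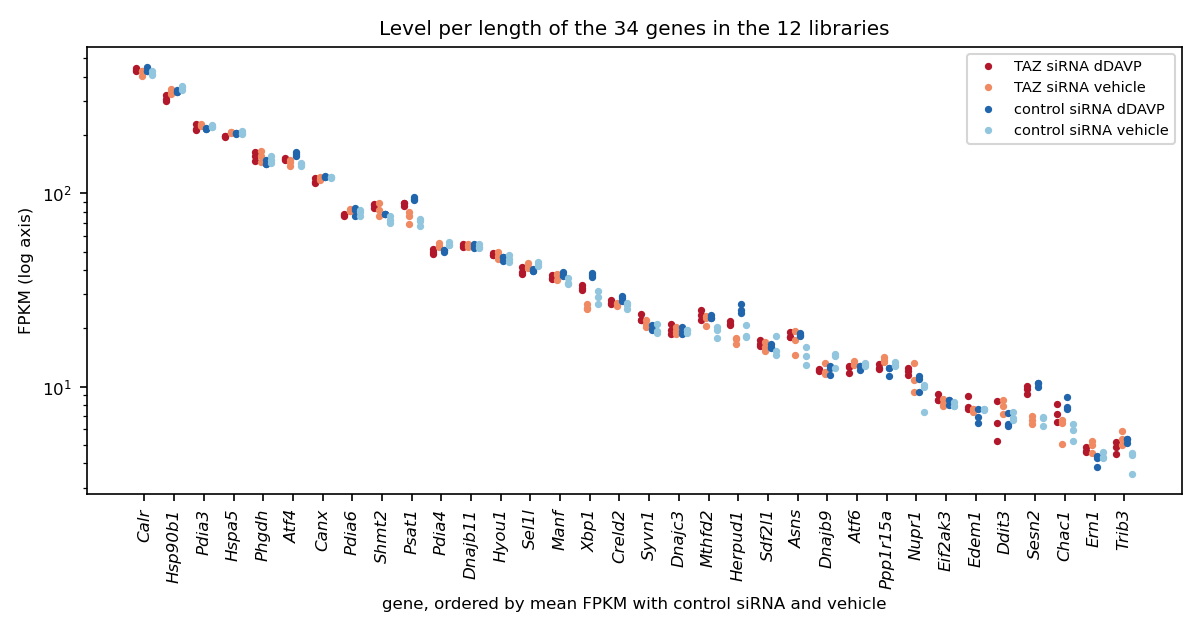
Level per length (FPKM, log axis) of the 34 genes in each of the 12 libraries, ordered by their mean with control siRNA and vehicle, with 1 point per library and 1 colour per group. Calr, Hsp90b1, Pdia3 and Hspa5 lead the order and Trib3 closes it. For Xbp1, Herpud1, Psat1 and Sesn2 the dDAVP libraries stand apart from the vehicle libraries of the same siRNA.

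The first comparison asked which of the 34 genes responded to dDAVP with the control siRNA. Of the 12 ATF4-type genes, 7 rose (Sesn2, Chac1, Psat1, Asns, Trib3, Mthfd2 and Atf4) and 0 fell. Of the 18 ER folding and degradation genes, 1 rose (Herpud1) and 2 fell (Pdia4 and Sel1l), and of the other 4 genes Xbp1 rose. Of all genes tested 19.2% were called, 9.72% higher and 9.48% lower. The ATF4-type genes had 58.3% called, and the ER genes 16.7%, which is near that background. The median log2 fold change was 0.23 over the 12 ATF4-type genes and 0.02 over the 18 ER genes, beside a median of about 0 over all genes (-0.0012). A gene is called here at an adjusted p under 0.05 in edgeR's quasi-likelihood test, Benjamini-Hochberg adjusted across all 15932 genes. Unless another fit or a left-out library is named, an adjusted p below comes from that fit. Values after ± beside a log2 fold change are standard errors, and the median standard error was 0.05 over the 34 genes and 0.07 over all genes, so that small changes pass the test more readily in these well counted genes.

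Among the regulators, Sesn2, a stress-induced inhibitor of mTORC1 signalling, moved most. Sesn2 had 28.3, 28.8 and 26.7 CPM in TAZ siRNA dDAVP libraries and 18.4, 19.1 and 20.2 CPM in TAZ siRNA vehicle libraries. With control siRNA, Sesn2 had 30.2, 28.8 and 30.02 CPM in dDAVP libraries and 19.8, 17.98 and 19.97 CPM in vehicle libraries. In both siRNA groups every dDAVP library was above every vehicle library. The log2 fold change with dDAVP was 0.54 ± 0.06 (adjusted p = 2.54e-06) with TAZ siRNA and 0.62 ± 0.06 (adjusted p = 2.47e-07) with control siRNA.

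Chac1 encodes an enzyme that breaks down glutathione. Chac1 had 13.9, 12.2 and 11.4 CPM in TAZ siRNA dDAVP libraries and 8.54, 10.998 and 11.3 CPM in TAZ siRNA vehicle libraries. With control siRNA, Chac1 had 15.1, 13.1 and 13.3 CPM in dDAVP libraries and 10.2, 8.87 and 10.8 CPM in vehicle libraries. The groups did not overlap with either siRNA, although with TAZ siRNA the nearest libraries almost touched. Its log2 fold change was 0.28 ± 0.11 (adjusted p = 0.104) with TAZ siRNA and 0.47 ± 0.11 (adjusted p = 0.00406) with control siRNA.

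Atf4 encodes the transcription factor at the head of the arm, whose activity is set mainly at translation. Atf4 had 284, 275 and 287 CPM in TAZ siRNA dDAVP libraries and 256, 269.7 and 276 CPM in TAZ siRNA vehicle libraries. With control siRNA, Atf4 had 301, 294 and 308 CPM in dDAVP libraries and 270.4, 258 and 264 CPM in vehicle libraries. With control siRNA the dDAVP libraries were all above the vehicle libraries, and with TAZ siRNA the highest vehicle library just passed the lowest dDAVP library. The change was 0.08 ± 0.03 (adjusted p = 0.167) with TAZ siRNA and 0.19 ± 0.03 (adjusted p = 0.000605) with control siRNA, the smallest among the ATF4-type genes called.

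Trib3 encodes a pseudokinase induced by ATF4 and CHOP. Trib3 had 11.6, 9.87 and 11.002 CPM in TAZ siRNA dDAVP libraries and 11.1, 13.1 and 11.9 CPM in TAZ siRNA vehicle libraries. With control siRNA, Trib3 had 11.4, 11.99 and 11.997 CPM in dDAVP libraries and 9.85, 7.90 and 9.98 CPM in vehicle libraries. Control siRNA vehicle libraries were the low group, with only the lowest TAZ siRNA dDAVP library inside their range, and the other three groups overlapped. With dDAVP its log2 fold change was -0.15 ± 0.09 (adjusted p = 0.358) with TAZ siRNA and 0.35 ± 0.09 (adjusted p = 0.0128) with control siRNA. The call with control siRNA was lost without control siRNA vehicle replicate 2, the lowest library (adjusted p = 0.0765, in a range of 0.00327 to 0.0765 over the alternatives).

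Ddit3, which encodes CHOP, the factor tied to cell death under prolonged ER stress, was not called in any comparison. Ddit3 had 8.29, 7.47 and 11.2 CPM in TAZ siRNA dDAVP libraries and 10.5, 9.79 and 8.99 CPM in TAZ siRNA vehicle libraries. With control siRNA, Ddit3 had 8.05, 9.16 and 8.65 CPM in dDAVP libraries and 8.86, 8.87 and 8.71 CPM in vehicle libraries. With vehicle the TAZ siRNA libraries were all above the control siRNA libraries, the other pairs of groups compared overlapped, and 1 TAZ siRNA dDAVP library stood above the other two. With TAZ siRNA its log2 fold change was 0.06 ± 0.11 (adjusted p = 0.816) under dDAVP and 0.15 ± 0.11 (adjusted p = 0.515) under vehicle. Its log2 fold change with dDAVP was -0.12 ± 0.11 (adjusted p = 0.568) with TAZ siRNA and -0.03 ± 0.11 (adjusted p = 0.893) with control siRNA. Without that library, replicate 3, it was called lower with dDAVP in TAZ siRNA cells, at -0.31 (adjusted p = 0.0487, in a range of 0.0487 to 0.956 over the alternatives). Ppp1r15a (GADD34), which brings a phosphatase to eIF2-alpha, had -0.11 ± 0.05 (adjusted p = 0.187) with TAZ siRNA and -0.10 ± 0.05 (adjusted p = 0.212) with control siRNA. Nupr1, a small stress-induced chromatin protein, had 0.12 ± 0.13 (adjusted p = 0.624) with TAZ siRNA and 0.20 ± 0.13 (adjusted p = 0.326) with control siRNA.

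Of the 5 enzymes, 1 rose with dDAVP in TAZ siRNA cells, where 6.38% of all genes were called higher, and 3 in control siRNA cells, where 9.72% were. Psat1 makes phosphoserine in the serine pathway. Psat1 had 211, 208 and 207 CPM in TAZ siRNA dDAVP libraries and 162, 179.8 and 188 CPM in TAZ siRNA vehicle libraries. With control siRNA, Psat1 had 218, 222 and 225 CPM in dDAVP libraries and 169.6, 159 and 173 CPM in vehicle libraries. The dDAVP libraries were above the vehicle libraries with both siRNAs, at 0.24 ± 0.04 (adjusted p = 0.00119) with TAZ siRNA and 0.41 ± 0.04 (adjusted p = 3.24e-06) with control siRNA.

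Asns, asparagine synthetase, is a standard readout of ATF4. Asns had 40.9, 37.99 and 39.3 CPM in TAZ siRNA dDAVP libraries and 30.9, 36.9 and 40.7 CPM in TAZ siRNA vehicle libraries. With control siRNA, Asns had 38.98, 39.5 and 40.3 CPM in dDAVP libraries and 30.8, 27.7 and 33.95 CPM in vehicle libraries. Control siRNA dDAVP libraries were above all control siRNA vehicle libraries, and the TAZ siRNA vehicle libraries were widely spread, from the level of the control siRNA vehicle group to that of the dDAVP groups. The log2 fold change with dDAVP was 0.12 ± 0.08 (adjusted p = 0.397) with TAZ siRNA and 0.36 ± 0.08 (adjusted p = 0.00496) with control siRNA.

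Mthfd2, a mitochondrial enzyme of one-carbon metabolism, gave a like picture. Mthfd2 had 56.2, 49.2 and 53.6 CPM in TAZ siRNA dDAVP libraries and 45.8, 51.8 and 50.6 CPM in TAZ siRNA vehicle libraries. With control siRNA, Mthfd2 had 50.8, 53.04 and 51.1 CPM in dDAVP libraries and 44.05, 39.97 and 45.3 CPM in vehicle libraries. The control siRNA groups did not overlap and the TAZ siRNA groups did. Its change with dDAVP was 0.10 ± 0.06 (adjusted p = 0.313) with TAZ siRNA and 0.26 ± 0.06 (adjusted p = 0.00429) with control siRNA. Shmt2, which moves a carbon unit from serine to folate in mitochondria, had 0.09 ± 0.05 (adjusted p = 0.284) with TAZ siRNA and 0.10 ± 0.05 (adjusted p = 0.171) with control siRNA. Phgdh had 0.01 ± 0.05 (adjusted p = 0.912) with TAZ siRNA and -0.04 ± 0.05 (adjusted p = 0.654) with control siRNA.

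**Figure D2:**
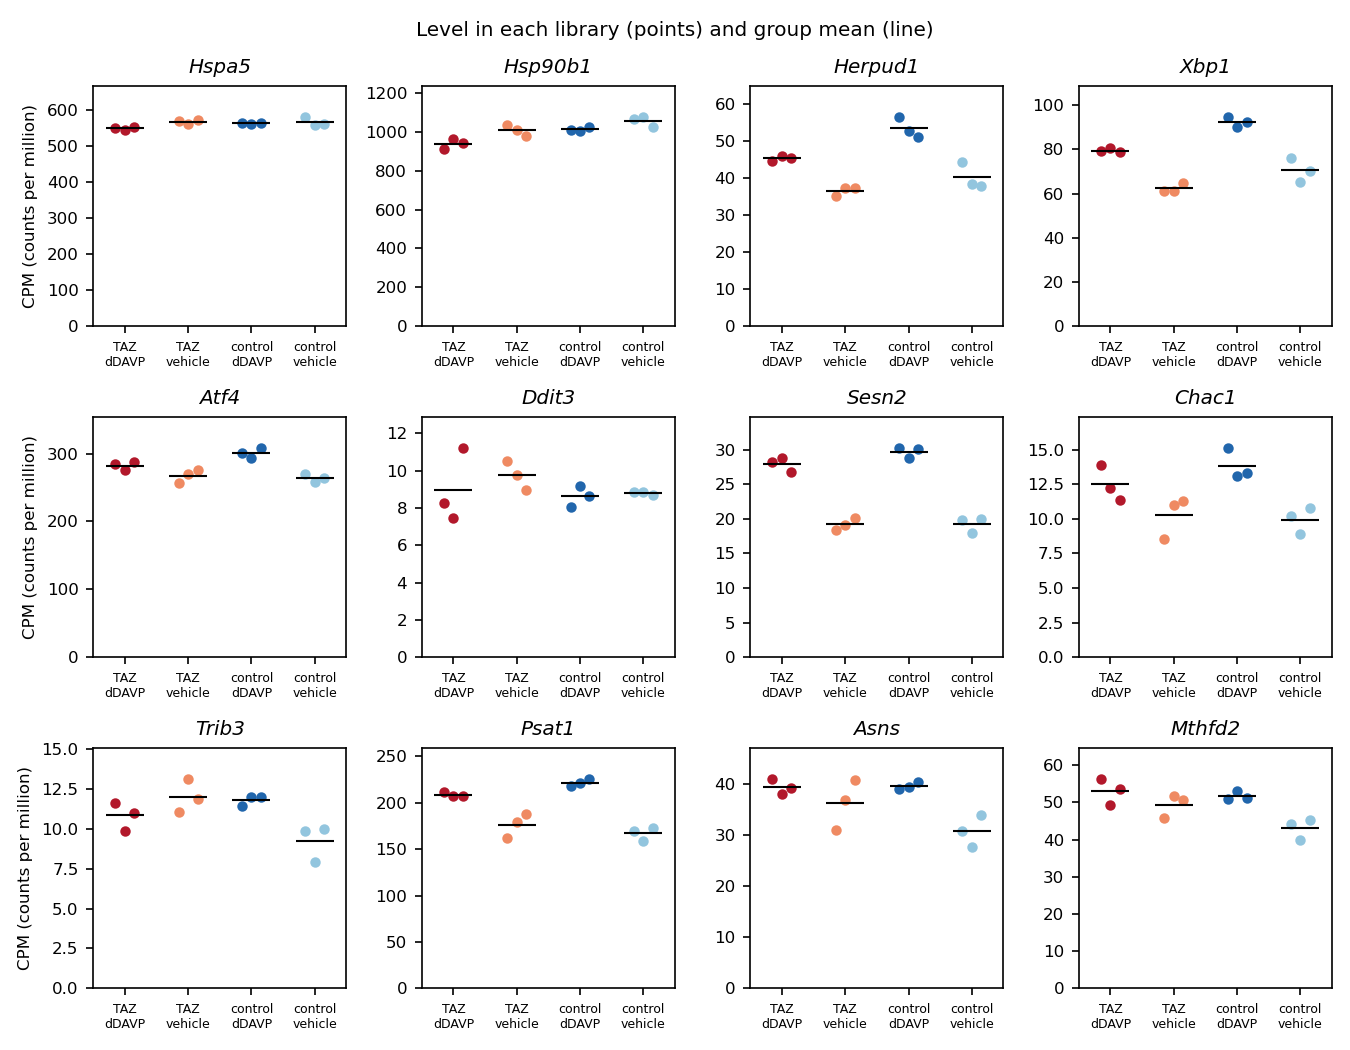
Level in CPM of 12 of the genes in each library, with points for libraries, a line for the mean of 3 libraries and axes that start at 0. Sesn2 and Psat1 separate dDAVP from vehicle with both siRNAs, Hspa5 is flat at 546 to 581 CPM, and for Asns, Trib3 and Mthfd2 the low group is control siRNA with vehicle.

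The ER chaperones and foldases, read as 14 genes, had 0 called higher and 1 called lower with dDAVP in each siRNA group. That is 7.14% called, against 10.8% of all genes with TAZ siRNA and 19.2% with control siRNA. Hspa5, the chaperone most used as a readout of ER stress, was almost level over the 12 libraries. Hspa5 had 550.4, 546 and 554 CPM in TAZ siRNA dDAVP libraries and 571, 561 and 573 CPM in TAZ siRNA vehicle libraries. With control siRNA, Hspa5 had 566, 562 and 566 CPM in dDAVP libraries and 581, 561 and 562 CPM in vehicle libraries. All 4 groups lay within a narrow band, and with TAZ siRNA the dDAVP libraries were below the vehicle libraries. Its log2 fold change was -0.05 ± 0.03 (adjusted p = 0.301) with TAZ siRNA and -0.01 ± 0.03 (adjusted p = 0.883) with control siRNA.

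Pdia4, a disulfide isomerase, fell with control siRNA. Pdia4 had 133, 138 and 137 CPM in TAZ siRNA dDAVP libraries and 142, 144 and 148 CPM in TAZ siRNA vehicle libraries. With control siRNA, Pdia4 had 134, 138 and 139 CPM in dDAVP libraries and 147, 147 and 151 CPM in vehicle libraries. The dDAVP libraries were below the vehicle libraries with both siRNAs, with -0.09 ± 0.03 (adjusted p = 0.0859) for TAZ siRNA and -0.12 ± 0.03 (adjusted p = 0.0142) for control siRNA. Without control siRNA vehicle replicate 3 the control siRNA call was lost (adjusted p = 0.0603, in a range of 0.00321 to 0.0603 over the alternatives). With TAZ siRNA Pdia4 was called lower with library totals in place of TMM factors, without a low-count filter and in DESeq2 (adjusted p of 0.0483, 0.0484 and 0.0435, in a range of 0.0435 to 0.244). The other chaperones with control siRNA ranged from -0.17 for Dnajb9 (adjusted p = 0.0799), a BiP co-chaperone, to 0.14 for Manf (adjusted p = 0.0533), an ER-resident secreted protein, and in both the adjusted p missed the threshold. DESeq2 and limma-voom called Manf (adjusted p of 0.0338 and 0.0492, in a range of 0.0338 to 0.216 over the alternatives), and DESeq2 called Creld2, another ER stress-induced protein (adjusted p = 0.0411, in a range of 0.0411 to 0.249). Leaving out control siRNA vehicle replicate 3 made Manf called (adjusted p = 0.0413), and leaving out control siRNA vehicle replicate 2 made Dnajb9 called lower (adjusted p = 0.0179, in a range of 0.0179 to 0.306). The lectin chaperone Canx had -0.02 ± 0.03 (adjusted p = 0.707) with TAZ siRNA and 0.02 ± 0.03 (adjusted p = 0.653) with control siRNA, and its soluble relative Calr had 0.07 ± 0.03 (adjusted p = 0.173) with TAZ siRNA and 0.07 ± 0.03 (adjusted p = 0.145) with control siRNA. Hyou1, Pdia3, Pdia6, Sdf2l1, Dnajb11 and Dnajc3 lay between -0.06 and 0.07 with either siRNA.

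The 4 degradation genes did not move as one. Herpud1, a membrane protein that helps to assemble the degradation complex, rose with both siRNAs. It is the one ER gene whose promoter window held the C/EBP-ATF element printed above. Nupr1 held that element and was not called, and Sesn2, Psat1, Mthfd2 and Atf4 rose with control siRNA and had no match. A link between element and response was not tested. Herpud1 had 44.7, 46.01 and 45.6 CPM in TAZ siRNA dDAVP libraries and 35.2, 37.4 and 37.3 CPM in TAZ siRNA vehicle libraries. With control siRNA, Herpud1 had 56.5, 52.9 and 51.01 CPM in dDAVP libraries and 44.3, 38.6 and 37.9 CPM in vehicle libraries. Its dDAVP libraries were above the vehicle libraries of the same siRNA in every case. The log2 fold change was 0.31 ± 0.06 (adjusted p = 0.00121) with TAZ siRNA and 0.41 ± 0.06 (adjusted p = 4.68e-05) with control siRNA.

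Sel1l, the adaptor of the ubiquitin ligase that Syvn1 encodes, also fell with control siRNA. Sel1l had 271, 280.4 and 267 CPM in TAZ siRNA dDAVP libraries and 296, 276 and 280.5 CPM in TAZ siRNA vehicle libraries. With control siRNA, Sel1l had 276, 271 and 271 CPM in dDAVP libraries and 288, 299 and 292 CPM in vehicle libraries. The control siRNA groups did not overlap, and the TAZ siRNA groups did. Its log2 fold change was -0.06 ± 0.03 (adjusted p = 0.277) with TAZ siRNA and -0.10 ± 0.03 (adjusted p = 0.0329) with control siRNA. The call with control siRNA was lost when any of 4 libraries was left out (control siRNA dDAVP replicates 2 and 3 and control siRNA vehicle replicates 2 and 3, adjusted p of 0.0899, 0.0943, 0.132 and 0.066), and without a low-count filter (adjusted p = 0.0547). Edem1, which marks misfolded glycoproteins for removal, had 0.08 ± 0.04 (adjusted p = 0.283) with TAZ siRNA and 0.02 ± 0.04 (adjusted p = 0.851) with control siRNA.

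With TAZ siRNA, dDAVP raised 4 of the 34 genes (Sesn2, Xbp1, Herpud1 and Psat1) and lowered 1 (Hsp90b1), where 10.8% of all genes were called, 6.38% higher and 4.41% lower. ATF4-type genes had 2 of 12 called higher and a median of 0.09, which was 0.04 without TAZ siRNA vehicle replicate 1, and ER genes had 1 higher and 1 lower of 18 and a median of 0.01. Hsp90b1 (GRP94), the ER form of the Hsp90 chaperone, was the gene that fell. Hsp90b1 had 909, 964 and 939.9 CPM in TAZ siRNA dDAVP libraries and 1037, 1010 and 977 CPM in TAZ siRNA vehicle libraries. With control siRNA, Hsp90b1 had 1007, 1006 and 1027 CPM in dDAVP libraries and 1064, 1074 and 1025 CPM in vehicle libraries. The TAZ siRNA dDAVP libraries were the lowest of the 12. Its log2 fold change with dDAVP was -0.10 ± 0.03 (adjusted p = 0.0435) with TAZ siRNA and -0.06 ± 0.03 (adjusted p = 0.245) with control siRNA. The TAZ siRNA call was lost without TAZ siRNA dDAVP replicate 1 or 3 or TAZ siRNA vehicle replicate 1 or 2 (adjusted p of 0.19, 0.0949, 0.148 and 0.114). It was lost too with the replicate number as a block (adjusted p = 0.0503) and in the fit on the compared groups alone (adjusted p = 0.0948).

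**Figure D3:**
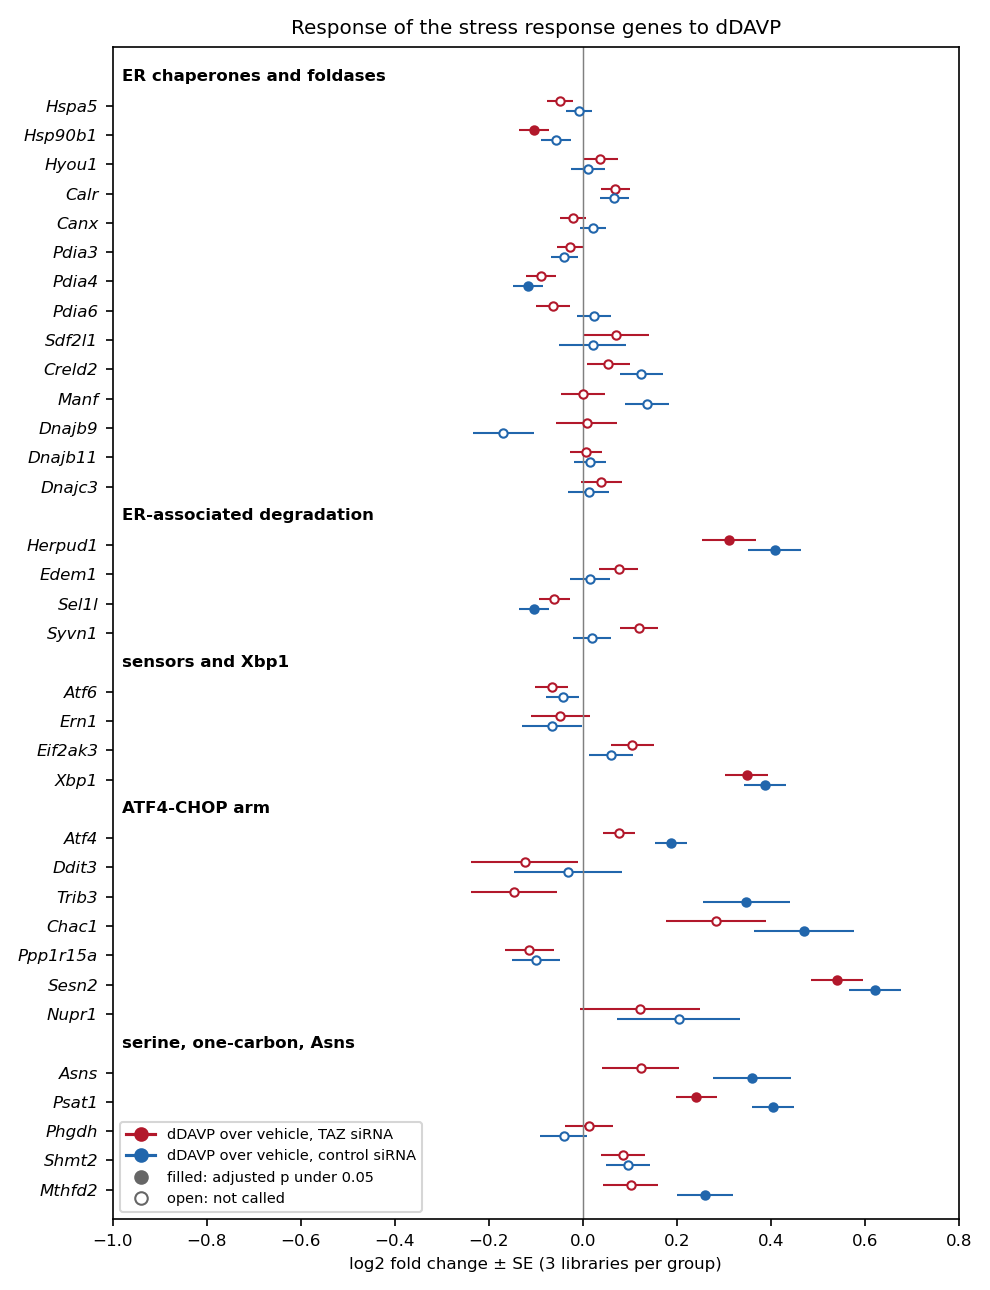
Log2 fold change with dDAVP over vehicle for the 34 genes, grouped by role, with TAZ siRNA (red) above control siRNA (blue), bars for the standard error and filled points for an adjusted p under 0.05. Filled points to the right of 0 are Herpud1, Xbp1 and ATF4-type genes, led by Sesn2 at 0.54 and 0.62, and the chaperones stay between -0.17 and 0.14.

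Of the sensors, none was called with dDAVP. Atf6 had -0.07 ± 0.04 (adjusted p = 0.272) with TAZ siRNA and -0.04 ± 0.04 (adjusted p = 0.459) with control siRNA. Ern1 had -0.05 ± 0.06 (adjusted p = 0.718) with TAZ siRNA and -0.07 ± 0.06 (adjusted p = 0.543) with control siRNA. Eif2ak3 had 0.11 ± 0.05 (adjusted p = 0.167) with TAZ siRNA and 0.06 ± 0.05 (adjusted p = 0.429) with control siRNA. Xbp1, the mRNA that IRE1 processes and itself a target of the response, did rise. Xbp1 had 79.2, 80.5 and 78.6 CPM in TAZ siRNA dDAVP libraries and 61.2, 61.3 and 64.6 CPM in TAZ siRNA vehicle libraries. With control siRNA, Xbp1 had 94.5, 90.04 and 92.4 CPM in dDAVP libraries and 76.1, 65.2 and 70.3 CPM in vehicle libraries. The dDAVP libraries were above the vehicle libraries with both siRNAs, and among cells given dDAVP the TAZ siRNA libraries were all below the control siRNA libraries. The log2 fold change with dDAVP was 0.35 ± 0.05 (adjusted p = 4.34e-05) with TAZ siRNA and 0.39 ± 0.05 (adjusted p = 6.81e-06) with control siRNA.

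The stretch that IRE1 removes from Xbp1 mRNA lies in exon 4, in the coding part, at chr11:5524279-5524304 on GRCm38, plus strand. It is shown because the deposited transcript table holds 2 Xbp1 models of 2247 and 2221 bases, which differ in length by the 26 bases that processing removes. The capitals mark the 26 bases between cuts inside a pair of repeats of the form CNGCNGC, the one such pair at that distance in the GENCODE transcript, with 20 bases on either side.
Xbp1, chr11:5524259-5524324: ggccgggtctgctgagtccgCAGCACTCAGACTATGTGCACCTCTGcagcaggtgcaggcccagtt

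The share of Xbp1 estimated counts given to the shorter model was 25.8%, 22.8% and 25.0% in TAZ siRNA dDAVP libraries, 30.8%, 11.6% and 30.8% in TAZ siRNA vehicle libraries, 29.7%, 31.8% and 28.6% in control siRNA dDAVP libraries and 17.1%, 24.1% and 29.2% in control siRNA vehicle libraries. The vehicle groups were wide and the dDAVP groups narrow. The widest of the exact 95% binomial (Clopper-Pearson) intervals, which cover counting error only, ran from 22.6% to 25.7% in control siRNA vehicle replicate 2, narrower than the span of the 3 libraries in either vehicle group. With dDAVP the mean share was 24.5% ± 1.58 against 24.4% ± 11.1 with vehicle in TAZ siRNA cells (SD, n = 3 each; exact two-sided permutation p = 1), and 30.0% ± 1.63 against 23.5% ± 6.08 in control siRNA cells (exact permutation p = 0.2). Without TAZ siRNA vehicle replicate 2 the difference in TAZ siRNA cells was -6.31 percentage points, against 0.0995 with it. Among dDAVP libraries, the 3 with TAZ siRNA were all below the 3 with control siRNA, with a difference of -5.51 percentage points. Its exact permutation p = 0.1 is the smallest that 3 libraries against 3 allow. Exchanging dDAVP and vehicle labels within each siRNA gave p = 0.415 over all 400 assignments (exact permutation test, two-sided). How the authors divided reads between models this alike is not stated, so the shares are their estimates.

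**Figure D4:**
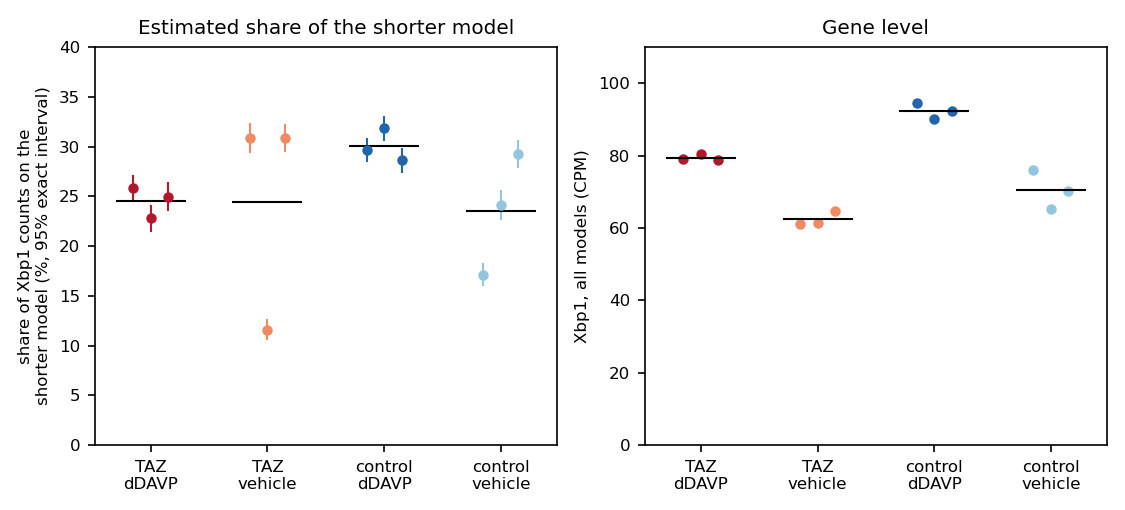
Left, share of Xbp1 estimated counts on the model shorter by 26 bases in each library (percent, bars are exact 95% intervals), and right, the level of the whole gene (CPM), with lines for the means of 3 libraries. The gene level separates dDAVP from vehicle with both siRNAs, and the share does not.

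The second question was the effect of TAZ siRNA. With vehicle, 2 of the 34 genes rose (Trib3 and Shmt2) and 1 fell (Xbp1), where 6.3% of all genes were called, 3.19% higher and 3.11% lower. Trib3 had a log2 fold change of 0.37 ± 0.09 (adjusted p = 0.021) and Xbp1 of -0.18 ± 0.05 (adjusted p = 0.0259). These are the libraries printed above: TAZ siRNA vehicle libraries of Trib3 were all above, and those of Xbp1 all below, the control siRNA vehicle libraries. ATF4-type genes had 2 of 12 called higher, 11 of 12 values above 0 and a median of 0.11, which was 0.07 without TAZ siRNA vehicle replicate 3. Of all genes 50.7% had a value above 0, and their median was 0.0017. ER genes had 0 of 18 called and a median of 0.0024.

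Shmt2 was called higher with TAZ siRNA under both treatments. Shmt2 had 223, 208 and 221 CPM in TAZ siRNA dDAVP libraries and 189, 204 and 221 CPM in TAZ siRNA vehicle libraries. With control siRNA, Shmt2 had 196, 196 and 195 CPM in dDAVP libraries and 182, 176 and 190.3 CPM in vehicle libraries. TAZ siRNA libraries were above control siRNA libraries with dDAVP, and with vehicle the lowest TAZ siRNA library lay just below the highest control siRNA library. The log2 fold change was 0.15 ± 0.05 (adjusted p = 0.0439) with dDAVP and 0.16 ± 0.05 (adjusted p = 0.044) with vehicle. With dDAVP, leaving out any of 5 of the 6 libraries (all but TAZ siRNA dDAVP replicate 2) ended that call, with adjusted p between 0.107 and 0.167, as did no low-count filter and limma-voom (adjusted p of 0.0738 and 0.0585). With vehicle, leaving out TAZ siRNA vehicle replicate 2 or 3 or control siRNA vehicle replicate 1 or 2 ended it, with adjusted p between 0.137 and 0.24, as did limma-voom and the fit on the compared groups alone (adjusted p of 0.0642 and 0.0899). The call of Trib3 with vehicle ended without TAZ siRNA vehicle replicate 2 or 3 or control siRNA vehicle replicate 2 (adjusted p of 0.131, 0.0585 and 0.091). That of Xbp1 ended without TAZ siRNA vehicle replicate 2 or control siRNA vehicle replicate 1 or 3 (adjusted p of 0.11, 0.179 and 0.0696), and in the fit on the compared groups alone (adjusted p = 0.0715). Without TAZ siRNA vehicle replicate 1, the lowest of the 3 TAZ siRNA vehicle libraries in Asns, Psat1, Mthfd2 and Shmt2, 5 ATF4-type genes were called higher with vehicle in place of 2. Calls over all genes rose in that run too, from 1004 to 1435, and those called higher from 508 to 616.

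With dDAVP, TAZ siRNA cells had 2 of the 34 genes higher (Syvn1 and Shmt2) and 3 lower (Herpud1, Xbp1 and Hsp90b1), where 10.7% of all genes were called, 5.77% higher and 4.97% lower. Syvn1 encodes HRD1, the ubiquitin ligase of ER-associated degradation. Syvn1 had 82.3, 87.3 and 83.96 CPM in TAZ siRNA dDAVP libraries and 75.8, 77.2 and 80.2 CPM in TAZ siRNA vehicle libraries. With control siRNA, Syvn1 had 75.99, 72.3 and 72.7 CPM in dDAVP libraries and 70.4, 76.9 and 70.9 CPM in vehicle libraries. TAZ siRNA dDAVP libraries were above all others, and the control siRNA groups overlapped. The log2 fold change was 0.20 ± 0.04 (adjusted p = 0.00375) with dDAVP and 0.10 ± 0.04 (adjusted p = 0.176) with vehicle. For Herpud1 the values were -0.23 ± 0.06 (adjusted p = 0.0119) with dDAVP and -0.14 ± 0.06 (adjusted p = 0.18) with vehicle, so that 2 genes of the same degradation list moved in opposite directions with dDAVP. Xbp1 had -0.22 ± 0.05 (adjusted p = 0.00441) and Hsp90b1 -0.11 ± 0.03 (adjusted p = 0.0313) with dDAVP. Leaving out control siRNA dDAVP replicate 1 ended the call of Herpud1 (adjusted p = 0.0603, in a range of 0.00116 to 0.0603 over the alternatives), and leaving out any of 5 of the 6 libraries (all but TAZ siRNA dDAVP replicate 2) ended that of Hsp90b1 (adjusted p of 0.0588 to 0.141). ATF4-type genes had 1 of 12 called and a median of 0.02, which was -0.03 without TAZ siRNA dDAVP replicate 1 or 3 and -0.0083 without control siRNA dDAVP replicate 1. Atf4 itself had -0.09 ± 0.03 (adjusted p = 0.0932). DESeq2 called Atf4 and the chaperone Canx lower (adjusted p of 0.0356 and 0.0278, in ranges of 0.0355 to 0.227 and 0.0278 to 0.277 over the alternatives).

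**Figure D5:**
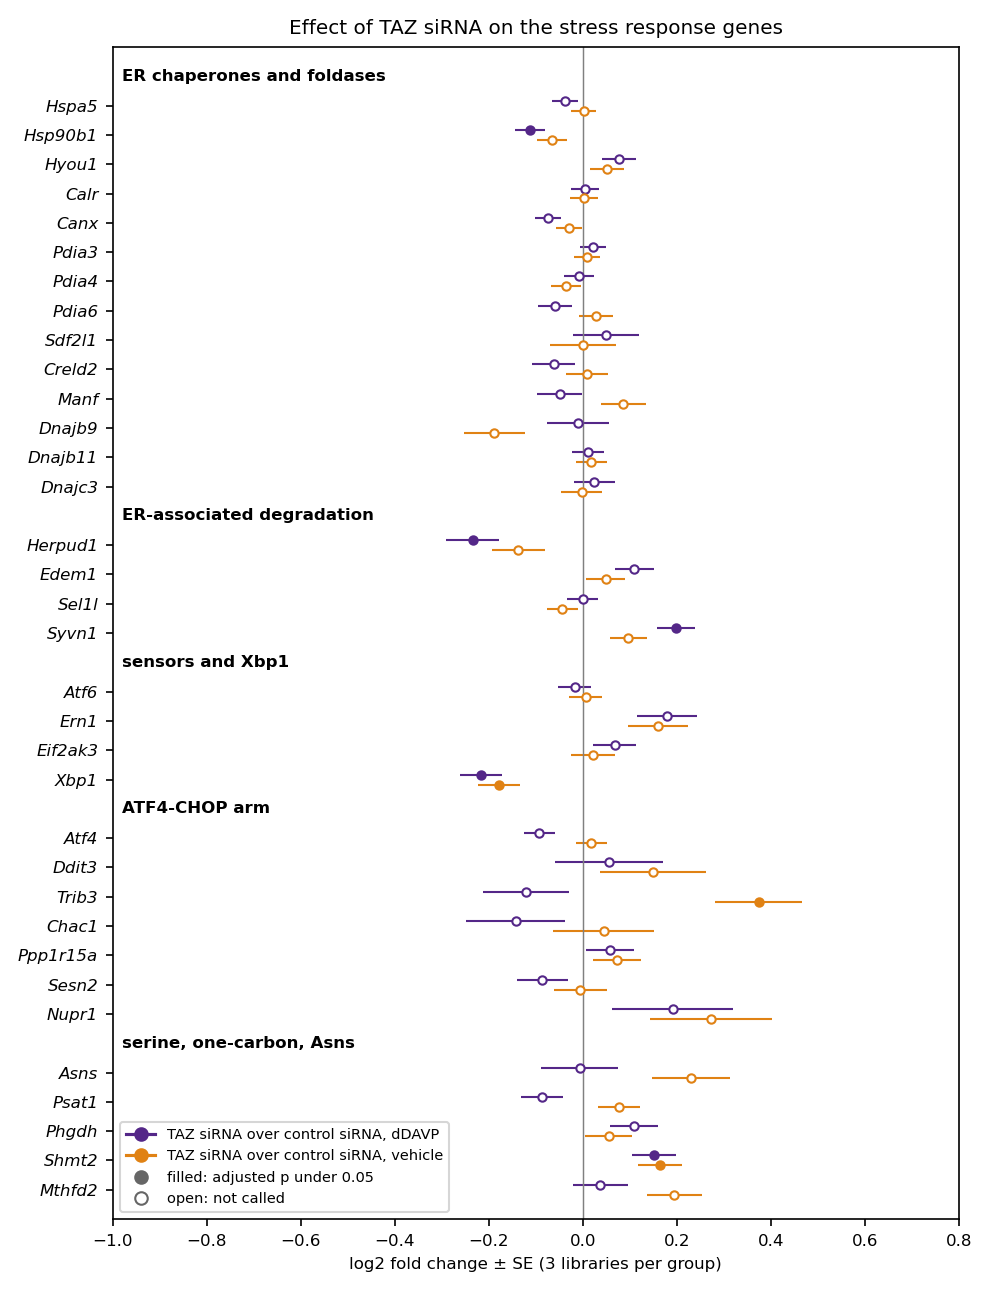
Log2 fold change with TAZ siRNA over control siRNA for the 34 genes, by role, in cells given dDAVP and in cells given vehicle, with bars for the standard error and filled points for an adjusted p under 0.05. Xbp1 lies left of 0 under both treatments (-0.22 with dDAVP and -0.18 with vehicle), Shmt2 lies right of 0 under both (0.15 with dDAVP and 0.16 with vehicle), and Trib3 is at -0.12 with dDAVP and 0.37 with vehicle.

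Whether the response to dDAVP differed between the siRNAs was tested as the difference of the 2 log2 fold changes, TAZ siRNA minus control siRNA. None of the 34 genes passed (0 of 34 in edgeR, and 0 in DESeq2 and limma-voom), where 0.0314% of all genes were called, 5 in number. At an unadjusted p under 0.05 there were 3 of the 34 (Trib3, Psat1 and Atf4), a share near that of all genes (1295 of 15932). The 3 became 1 without TAZ siRNA vehicle replicate 3 and 8 without TAZ siRNA vehicle replicate 1. They became 2 to 6 without any other library and 7 without a low-count filter. Trib3, Psat1 and Atf4 are of the ATF4 type. Their difference was negative, at -0.49 ± 0.13 (adjusted p = 0.247) for Trib3, -0.16 ± 0.06 (adjusted p = 0.493) for Psat1 and -0.11 ± 0.05 (adjusted p = 0.567) for Atf4. The difference was below 0 for 11 of the 12 ATF4-type genes (median -0.10), for 8 of the 18 ER genes (median 0.01) and for 49.4% of all genes. The dDAVP comparison with control siRNA and the TAZ siRNA comparison with vehicle share the control siRNA vehicle libraries, so their values are not independent, and the difference uses all 4 groups. For Asns the difference was -0.24 ± 0.12 (adjusted p = 0.621), and for Sesn2, the gene that rose most, it was -0.08 ± 0.08 (adjusted p = 0.823).

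Further genes of the same pathways were read from lists of genes by role. Of 16 cytosolic aminoacyl-tRNA synthetases, the enzymes that charge tRNAs with amino acids, 0 were called with dDAVP in TAZ siRNA cells, with 12 values above 0. In control siRNA cells 10 of the 16 rose with dDAVP and 0 fell, and all 16 had a value above 0. The difference between the siRNAs was called for 0 of 16 (14 below 0). Aars averaged 347 ± 12.8 CPM with dDAVP and 321 ± 10.5 CPM with vehicle in TAZ siRNA cells (SD, n = 3 each). In control siRNA cells it averaged 355 ± 9.14 CPM with dDAVP and 312 ± 9.60 CPM with vehicle, a log2 fold change of 0.19 ± 0.04 (adjusted p = 0.00106). Yars and Cars rose by less with dDAVP in control siRNA cells (0.17 ± 0.05 (adjusted p = 0.0145) and 0.14 ± 0.04 (adjusted p = 0.0105)), and Cars was also called with TAZ siRNA under vehicle at 0.16 ± 0.04 (adjusted p = 0.0123). Beside these counts and those of the lists that follow, all genes had 6.38% called higher and 4.41% lower with dDAVP in TAZ siRNA cells, and 9.72% higher and 9.48% lower in control siRNA cells.

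Other ATF4 targets and partners had 3 of 20 tested genes higher and 1 lower with dDAVP in TAZ siRNA cells, and 8 higher and 1 lower in control siRNA cells. Between the siRNAs, the difference of the dDAVP effects was called for 0 of 20 (14 below 0). Gdf15, a secreted stress hormone, averaged 19.8 ± 0.227 CPM with dDAVP and 12.9 ± 1.29 CPM with vehicle in TAZ siRNA cells, and 21.8 ± 0.738 CPM with dDAVP and 12.5 ± 1.11 CPM with vehicle in control siRNA cells. Its log2 fold change was 0.62 ± 0.07 (adjusted p = 1.71e-05) with TAZ siRNA and 0.80 ± 0.07 (adjusted p = 4.22e-07) with control siRNA. Cebpb, a bZIP factor that pairs with ATF4, had 0.53 ± 0.07 (adjusted p = 2.2e-05) with TAZ siRNA and 0.67 ± 0.07 (adjusted p = 7.68e-07) with control siRNA. Fgf21, another secreted stress factor, was below 1 CPM in the mean of every group and had 0.89 ± 0.24 (adjusted p = 0.0135) with control siRNA. The gene that fell was Atf3, a stress-induced repressor, named after its values were seen, with -0.54 ± 0.10 (adjusted p = 0.00102) for dDAVP in TAZ siRNA cells and -0.44 ± 0.10 (adjusted p = 0.00556) in control siRNA cells. With TAZ siRNA it was higher, at 0.54 ± 0.10 (adjusted p = 0.00219) under dDAVP and 0.65 ± 0.10 (adjusted p = 0.000841) under vehicle. Atf3 was the 1 gene of the 20 called higher with TAZ siRNA, and 3 were called lower under dDAVP and 2 under vehicle. That is 20% and 15% called, against 10.7% and 6.3% of all genes.

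Amino acid transporters had 1 of 9 higher with dDAVP in TAZ siRNA cells, 2 of 9 in control siRNA cells and 3 of 9 higher with TAZ siRNA under vehicle. With dDAVP these are 11.1% called in TAZ siRNA cells and 22.2% in control siRNA cells, near the 10.8% and 19.2% of all genes, and 33.3% were called with TAZ siRNA under vehicle, against 6.3% of all genes. Under dDAVP, TAZ siRNA cells had 1 of the 9 higher and 1 lower, which is 22.2% called, against 10.7% of all genes. Between the siRNAs, the difference of the dDAVP effects was called for 0 of 9 (9 below 0). Slc3a2, the shared heavy chain of several transporters, rose with dDAVP by 0.20 ± 0.03 (adjusted p = 0.000664) with TAZ siRNA and 0.33 ± 0.03 (adjusted p = 1.89e-06) with control siRNA. Its light chain partner Slc7a5 and the neutral amino acid transporter Slc1a4 rose with TAZ siRNA under vehicle by 0.31 ± 0.07 (adjusted p = 0.0101) and 0.27 ± 0.07 (adjusted p = 0.0358). In the eIF2 list 3 of 12 genes rose with dDAVP in control siRNA cells, among them the eIF2 subunits Eif2s1 and Eif2s2 (0.13 ± 0.04 (adjusted p = 0.0177) and 0.14 ± 0.03 (adjusted p = 0.00452)). In the same list 2 of 12, Eif2s2 and Eif2b1, were lower with TAZ siRNA under dDAVP (-0.17 ± 0.03 (adjusted p = 0.00212) and -0.18 ± 0.05 (adjusted p = 0.0219)). That is 16.7% called, where 10.7% of all genes were called and 4.97% were called lower. For this list the difference of the dDAVP effects was called for 0 of 12 (9 below 0).

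The other genes of ER folding and export had 4 of 24 higher and 3 lower with dDAVP in control siRNA cells. That is 29.2% called, against 19.2% of all genes. Sec23b, a coat protein of the vesicles that leave the ER, rose with dDAVP, at 0.35 ± 0.03 (adjusted p = 7.76e-07) with TAZ siRNA and 0.40 ± 0.03 (adjusted p = 9.36e-08) with control siRNA. Ero1l, the oxidase that recharges the disulfide isomerases, averaged 54.6 ± 4.39 CPM in TAZ siRNA and 86.05 ± 11.2 CPM in control siRNA cells given dDAVP, and 54.3 ± 1.96 CPM in TAZ siRNA and 74.6 ± 8.15 CPM in control siRNA cells given vehicle. That was a log2 fold change with TAZ siRNA of -0.66 ± 0.09 (adjusted p = 0.000656) under dDAVP and -0.46 ± 0.09 (adjusted p = 0.0122) under vehicle. Wfs1, an ER membrane protein, went the other way, at 0.39 ± 0.04 (adjusted p = 1.41e-05) under dDAVP and 0.20 ± 0.04 (adjusted p = 0.00811) under vehicle. Of 14 other degradation genes, Ube2j1, an ER ubiquitin-conjugating enzyme, rose with dDAVP (0.18 ± 0.04 (adjusted p = 0.00972) with TAZ siRNA and 0.19 ± 0.04 (adjusted p = 0.00603) with control siRNA). Os9, an ER lectin, fell with control siRNA (-0.09 ± 0.03 (adjusted p = 0.0427)). That is 7.14% of the 14 called with dDAVP in TAZ siRNA cells and 14.3% in control siRNA cells, below the 10.8% and 19.2% of all genes. Of 6 tested genes for ER membrane transcription factors and their proteases, Mbtps2, the protease that makes the second cut in ATF6, fell with dDAVP in control siRNA cells (-0.19 ± 0.05 (adjusted p = 0.0131)), and Crebzf was lower with TAZ siRNA under dDAVP (-0.14 ± 0.04 (adjusted p = 0.0455)). Each was the 1 gene of the 6 called in its comparison, or 16.7%, against 19.2% and 10.7% of all genes.

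Outside the ER, 0 of 6 mitochondrial chaperones and proteases were called with dDAVP in TAZ siRNA cells, and 3 of 6 rose in control siRNA cells. Between the siRNAs, the difference of the dDAVP effects was called for 0 of 6 (6 below 0). In control siRNA cells the log2 fold change was 0.18 ± 0.03 (adjusted p = 0.000237) for Hspa9, 0.21 ± 0.07 (adjusted p = 0.0443) for Hspe1 and 0.11 ± 0.03 (adjusted p = 0.01) for Hspd1. Among 10 cytosolic heat shock genes, 2 rose with dDAVP under either siRNA, Hspa1a (0.25 ± 0.05 (adjusted p = 0.00451) with TAZ siRNA and 0.28 ± 0.05 (adjusted p = 0.000827) with control siRNA) and Hspa1b (0.27 ± 0.05 (adjusted p = 0.000494) and 0.25 ± 0.05 (adjusted p = 0.000585)). These 2 genes are near-identical copies, so how their reads were divided is uncertain. Hspa4l fell with dDAVP in TAZ siRNA cells (-0.23 ± 0.05 (adjusted p = 0.00549)). That is 30% of the 10 called in TAZ siRNA cells, against 10.8% of all genes, and 20% in control siRNA cells, near the 19.2% of all genes.

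Of the 34 genes, 14 overlap another RefSeq gene and 8 a protein-coding one, among them Hspa5 with Rabepk, Syvn1 with Mrpl49, Ddit3 with Mbd6 and Mars1, and Shmt2 with Ndufa4l2. Use of the strand in counting is not stated, so reads of such pairs may not be told apart. As these are bulk libraries, fewer cells of a kind and less RNA per cell cannot be told apart either.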

How the data were processed

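RNA sequencing of 12 mpkCCDc11 libraries was deposited by the authors as 1 table per gene and 1 per transcript model. Per the file headers, each holds a read count, an FPKM and a TPM value per library, and the transcript table also holds the other measure used, the transcript length. The read counts are treated here as estimated counts. The deposited estimated counts are whole numbers, not normalised, and were used without rounding. The deposited FPKM values set levels of different genes side by side, and the deposited TPM values were not used. Bowtie 0.12.2 and the builds mm8 and mm10 stand, with no role, in the submitters' processing notes, and the labels' protocols name a stranded and another TruSeq kit. No source used here gives the counting tool or its use of strand. The design had assumed read counts, and the test for counts was kept for these estimates.

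Genes were filtered with filterByExpr (minimum count 10), which left 15932 of 45777 genes and 99.98% of counts, and tested with edgeR 4.0.16 in R 4.3.3: TMM factors (0.988 to 1.01), 1 mean per group over all 12 libraries, robust quasi-likelihood F tests of 4 simple comparisons and of the difference of the dDAVP effects, and Benjamini-Hochberg adjustment over all genes tested. The biological coefficient of variation was 5.11%. CPM values use TMM-scaled library totals, and the standard error is the absolute log2 fold change over the square root of F. The fit was also run on simulated counts drawn with its own dispersions, which checks the code and cannot test the assumptions of the model. Alternatives were other scaling, no filter, DESeq2 1.42.0, limma-voom (limma 3.58.1), the compared groups alone, the replicate number as a block, and leaving out each library. Counting intervals are exact binomial ones.

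The members, their roles and the further gene lists were chosen with earlier results of these data known, so no list was tested as a set and no p was adjusted over a list alone. Values in every library are given for Hspa5, Xbp1, Atf4, Ddit3 and Asns and for members called with dDAVP under control siRNA or with TAZ siRNA, and up to 3 called genes with the largest change are named per further list. Promoter sequences come from RefSeq GRCm38.p6 and the Xbp1 sequence from the GENCODE transcripts of GRCm38.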

Additional observations from a re-analysis of the deposited data

How the results depend on the processing

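No direction of a called value turned round under any alternative run. With control siRNA, the ATF4-type genes higher with dDAVP numbered 7 under every alternative that kept all 12 libraries apart from the fit on the compared groups alone, which gave 8, and 6 to 7 when a library was left out. The members called with dDAVP under control siRNA numbered 11, 10 to 13 under the alternatives that kept all libraries (13 in DESeq2, 12 in limma-voom and in the compared groups alone) and 10 to 11 without a library. With TAZ siRNA they numbered 5, 4 to 7 under the alternatives that kept all libraries (7 in DESeq2) and 4 to 6 without a library, 2 to 3 of them higher and of the ATF4 type. The median over the 18 ER genes lay between -0.02 and 0.02 in every comparison and alternative and changed sign in each comparison. The TAZ siRNA comparisons were less stable. With vehicle, the 3 members called became 4 with library totals in place of TMM factors and in DESeq2. They became 2 in limma-voom, 1 in the fit on the compared groups alone and 0 to 7 without a library. The 2 ATF4-type genes higher became 3 with library totals and in DESeq2. They became 1 in limma-voom and in the compared groups alone and 0 to 5 without a library. With dDAVP, the 5 members called became 7 in DESeq2, 4 without a low-count filter and in limma-voom and 2 to 5 without a library, and the 1 ATF4-type gene higher became 0 without a low-count filter and in limma-voom and 0 to 1 without a library. For the difference of the dDAVP effects the members called were 0 throughout (0 to 0 without a library). The cause of these changes was not tested.

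Over all genes, calls without a library ranged over 1118 to 1752 for dDAVP with TAZ siRNA, 2103 to 2685 for dDAVP with control siRNA, 1049 to 1625 for TAZ siRNA with dDAVP, 410 to 1435 for TAZ siRNA with vehicle and 3 to 16 for the difference, where the 5 calls became 8 with library totals in place of TMM factors, 12 with no low-count filter and 77 in DESeq2, and the cause was not tested. The difference in the share of the shorter Xbp1 model ranged over -6.31 to 3.31 percentage points for dDAVP with TAZ siRNA and 3.36 to 9.41 with control siRNA, and over -6.21 to -4.62 for TAZ siRNA with dDAVP and -2.27 to 7.35 with vehicle.

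Deviations of libraries with the same replicate number had correlations of -0.107 to 0.265. The highest were 0.178 and 0.265, for replicates 1 and 3 of the vehicle groups. The numbers were not taken as pairs in the main fit. With the replicate block the members called were 4 for dDAVP with TAZ siRNA and 11 with control siRNA, 5 for TAZ siRNA with dDAVP and 3 with vehicle, and 0 for the difference.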
